A study of Mus musculus with 2 samples.

Results

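Of the 9165 Foxf2-FLAG regions mapped in mouse palatal shelves, 1104 (12.05%) were centred more than 1 kb and at most 10 kb from the nearest transcription start site (TSS) of a protein-coding transcript and outside the exons of such transcripts. They were chosen by position alone, from 1209 regions in that distance range, of which 105 had their centre in an exon and were left out. Chromatin bound by Foxf2 was precipitated with an anti-FLAG antibody and sequenced (ChIP-seq), from 50 pooled pairs of palatal shelves, the outgrowths that form the palate, at embryonic stage E13.5. Both alleles of Foxf2 carried a 3xFLAG tag on the endogenous protein, put in by CRISPR/Cas9 (Foxf2 FLAG/FLAG), and no other allele or treatment was named. The ChIP library of 26849463 tags was set against 1 input library, made without antibody from the same tagged genotype and about 19230000 tags deep by the scaling of the deposited values. Neither library had a replicate, so every interval and p-value given here covers counting error over the regions of 1 library, not the spread between embryos or experiments. An untagged anti-FLAG control was not analysed here. Whole shelves hold mesenchyme with its epithelial cover, vessels and nerves, and peaks do not measure expression, so the tissue label could not be checked by marker levels.

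Foxf2 is a forkhead (winged-helix) transcription factor of the neural-crest-derived palatal mesenchyme, and mice without it have a cleft palate. Forkhead domains contact a short AT-rich core, here searched on either strand as GTAAACA or ATAAACA, and as the variants GTAAATA and ATAAATA, and called a forkhead site. Sequence a few kilobases from a start holds both proximal enhancers, which can lie before the gene or in its first introns, and the outskirts of promoters.

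The sequences below surround the forkhead site nearest to the centre of the highest-scoring peaks that have such a site, 4 on each side of the start, and of the peak downstream of Foxf2 itself. They show what the highest-scoring of these regions with a site look like and are taken from the mm9 assembly. Each is printed 5′ to 3′ on the + strand of the chromosome, with every forkhead site in capitals; a site on the other strand appears as its reverse complement (TGTTTAC for GTAAACA). The name gives the gene with the nearest start, the side and the distance of the peak centre.
Aff3 (upstream, 5.88 kb), chr1:38727632-38727732, + strand: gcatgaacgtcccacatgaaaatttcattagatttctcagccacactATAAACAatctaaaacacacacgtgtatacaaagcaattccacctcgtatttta
Fam170b (upstream, 8.01 kb), chr14:33639134-33639234, + strand: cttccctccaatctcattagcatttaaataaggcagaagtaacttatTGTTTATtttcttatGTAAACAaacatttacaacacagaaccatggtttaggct
Tmem204 (upstream, 2.57 kb), chr17:25220563-25220663, + strand: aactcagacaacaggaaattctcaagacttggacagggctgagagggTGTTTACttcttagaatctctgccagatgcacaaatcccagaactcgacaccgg
Foxo3 (upstream, 1.48 kb), chr10:41998036-41998136, + strand: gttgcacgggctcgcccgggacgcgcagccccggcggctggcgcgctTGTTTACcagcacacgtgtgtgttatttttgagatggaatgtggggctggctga
Clrn2 (downstream, 3.3 kb), chr5:45848294-45848394, + strand: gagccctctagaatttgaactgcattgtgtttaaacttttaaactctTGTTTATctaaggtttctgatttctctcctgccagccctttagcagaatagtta
Chst15 (downstream, 7.77 kb), chr7:139500609-139500709, + strand: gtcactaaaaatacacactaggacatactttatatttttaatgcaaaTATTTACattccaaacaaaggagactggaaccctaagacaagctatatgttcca
Sertad2 (downstream, 7.13 kb), chr11:20539051-20539151, + strand: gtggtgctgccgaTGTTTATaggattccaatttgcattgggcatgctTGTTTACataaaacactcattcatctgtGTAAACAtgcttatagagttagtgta
Odz4 (downstream, 4.34 kb), chr7:103364551-103364651, + strand: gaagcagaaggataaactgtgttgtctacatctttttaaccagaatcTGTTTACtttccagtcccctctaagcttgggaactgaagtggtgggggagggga
Foxf2 (downstream, 6.74 kb), chr13:31724362-31724462, + strand: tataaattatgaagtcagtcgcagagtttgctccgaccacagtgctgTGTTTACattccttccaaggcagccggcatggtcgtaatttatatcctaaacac
Of these 9 sites nearest to the centre, 5 read GTAAACA, 3 read ATAAACA and 1 read GTAAATA. The Sertad2 stretch held 3 sites within 101 bases and the Fam170b stretch held 2 on opposite strands. The Foxo3 site, 1.48 kb before the start, lay in GC-rich sequence (70% GC over the central 200 bp), whereas the other 8 centres had a GC content of 32.5 to 51.5%.

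Peaks were denser downstream of starts than upstream. Downstream positions held 627 peaks and upstream positions 477, with 191 Mb and 181 Mb of sequence that met the same rule. The density was 3.28 peaks per Mb downstream (exact Poisson 95% interval 3.03 to 3.55) and 2.64 upstream (2.41 to 2.89). The ratio of downstream to upstream was 1.24 (1.10 to 1.40, 2-sided exact binomial p = 0.000377).

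The largest differences in peaks per Mb between the sides were close to the start, where both sides were densest. At 1 to 2 kb the density was 5.86 peaks per Mb downstream (4.94 to 6.91) and 4.11 upstream (3.35 to 4.99), and at 2 to 3 kb it was 4.02 (3.25 to 4.91) and 2.49 (1.89 to 3.22). The intervals of the sides were apart at 2 to 3 kb and overlapped in every other 1 kb step. Upstream was slightly higher at 3 to 4 kb (3.14 against 3.07) and at 7 to 8 kb (2.58 against 2.30). Downstream was higher in the other steps, for example 2.35 against 1.44 at 6 to 7 kb and 2.58 against 2.40 at 9 to 10 kb. Whether the ratio of the sides changed with distance was not tested. The peak extent matters at the inner limit, because 94 of the 245 members at 1 to 2 kb had an edge within 1 kb of the start. The nearest start was not the outermost start of its gene for 459 members (41.6%), so that a peak upstream of an internal start could still lie inside the gene.

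**Figure D1:**
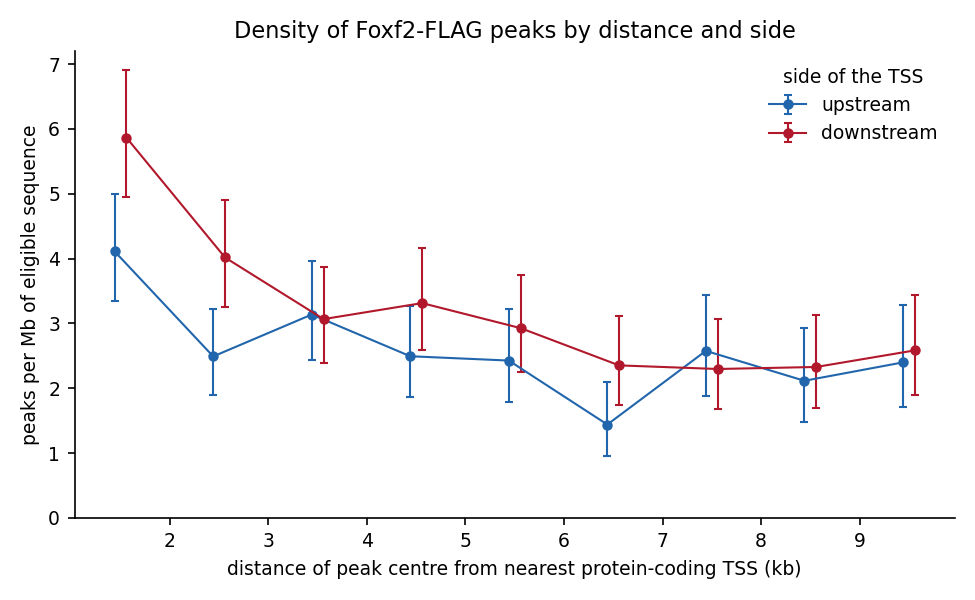
Peaks per Mb of eligible sequence (y axis) in 1 kb steps of distance from the nearest protein-coding TSS (x axis, kb), upstream in blue and downstream in red; bars are exact Poisson 95% intervals. The downstream density falls from 5.86 at 1 to 2 kb to 2.58 at 9 to 10 kb, and the sides separate most below 3 kb.

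Peaks were denser inside genes than between them. Inside the gene whose start was nearest there were 648 members, at 3.5 peaks per Mb (3.24 to 3.78), and between genes there were 416, at 2.49 (2.26 to 2.75). Inside another protein-coding gene there were 40, at 2.001 (1.43 to 2.73). Of downstream members 85.8% lay in their own gene, whereas 70.02% of upstream members were intergenic. Between genes the direction turned: the upstream density was 2.56 and the downstream density 2.27 (ratio upstream over downstream 1.13, 0.881 to 1.45, exact binomial p = 0.372). Inside genes of either kind the ratio was 0.814 (0.672 to 0.980, exact binomial p = 0.0295). Within the own gene alone the density was 3.18 upstream (2.61 to 3.83) and 3.57 downstream (3.28 to 3.89), with overlapping intervals. Within other genes it was 2.14 upstream (33 members) and 1.54 downstream (7 members). These splits by position were chosen after the data were seen, and the difference between the ratios was not tested.

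Intron 1 held most of the downstream peaks. Of 532 downstream members in an intron of the transcript with the nearest start, 362 (68.0%, Wilson 95% interval 64.0 to 71.9) were in intron 1, 93 in intron 2 and 77 in a later one. Of all 200 bp tiles of such sequence, 56.7% were in intron 1. The tiles were not matched to the members in distance from the start, and downstream peaks were densest at 1 to 2 kb. Whether intron 1 held more peaks than sequence at equal distance was therefore not tested.

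Upstream and downstream peaks had similar scores, tag numbers and base composition. The score, fold and p-value of a peak are the authors' own peak-calling values and only describe peaks within this list. The median score was 23 on both sides (quartiles 18 and 34 on both), the median ChIP tag number 28 on both, and the median excess over input 12.7-fold upstream and 12.9-fold downstream. Scores above 25, the median of all peaks, occurred in 42.8% of upstream and 42.3% of downstream members (odds ratio 1.02, 0.802 to 1.299, 2-sided Fisher exact p = 0.902). A GC content of at least 55% was found in 19.3% and 19.1% (odds ratio 1.01, 0.746 to 1.37, Fisher exact p = 1). That share was about the same on both sides, and above the 5.42% and 6.89% of the eligible tiles.

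The rule looked only at protein-coding starts, and a small share of members lay near another kind. The start of a transcript that is not protein-coding was within 1 kb of 33 upstream members (6.92%) and 48 downstream members (7.66%, odds ratio 0.897, 0.566 to 1.42, Fisher exact p = 0.727), against 2.87% and 4.595% of tiles. Counting only genes that are not protein-coding at all, the shares were 5.87% upstream and 3.83% downstream. Another peak was centred within 10 kb of 26.8% of upstream and 29.5% of downstream members, compared with 14.9% of all peaks. Many of these regions were shallow: 397 of the 1104 (35.96%) rested on at most 20 ChIP tags, and 89 (8.06%) had no input tag. Of all 9165 peaks, 29.002% rested on at most 20 ChIP tags and 6.405% had no input tag.

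Forkhead sites occurred in 508 of the 1104 members within the 200 bp around the centre (46.0%, Wilson interval 43.1 to 48.96), at nearly the same share on both sides. They were present in 219 of 477 upstream peaks (45.9%) and 289 of 627 downstream peaks (46.1%), with an odds ratio of 0.993 (0.782 to 1.26, Fisher exact p = 1). Of all eligible tiles 18.3% held one, and 15.9% did so after weighting tiles to the members' GC content. In windows of the same width 2000 bp away the share was 14.7% upstream and 16.6% downstream, 3.13 and 2.78 times lower than at the centre (exact McNemar p = 7.07e-26 and 6.97e-28). As a negative control the cores were read backwards, leaving out ATAAATA, which is the same backwards, so that this control has 3 sequences and not 4. It was found in 12.4% of members and 13.7% of tiles.

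The 4 cores were not equally frequent. GTAAACA was in 17.6% of members, 6.20 times the share in tiles, and ATAAACA in 22.1%, 3.96 times. GTAAATA was in 6.97%, 1.97 times the tile share, and ATAAATA in 9.15%, close to its tile share of 8.41%. The order was the same on both sides, with GTAAACA in 18.03% of upstream and 17.2% of downstream peaks. Most positive peaks had a single site: 169 of 219 upstream and 207 of 289 downstream. The sites ran in the direction of the gene in 50.3% of cases upstream (44.6 to 56.1) and 44.9% downstream (40.2 to 49.7). These intervals count each site separately, although 82 of the positive downstream peaks held several sites, up to 14. They are therefore too narrow, and a preferred direction was not tested.

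**Figure D2:**
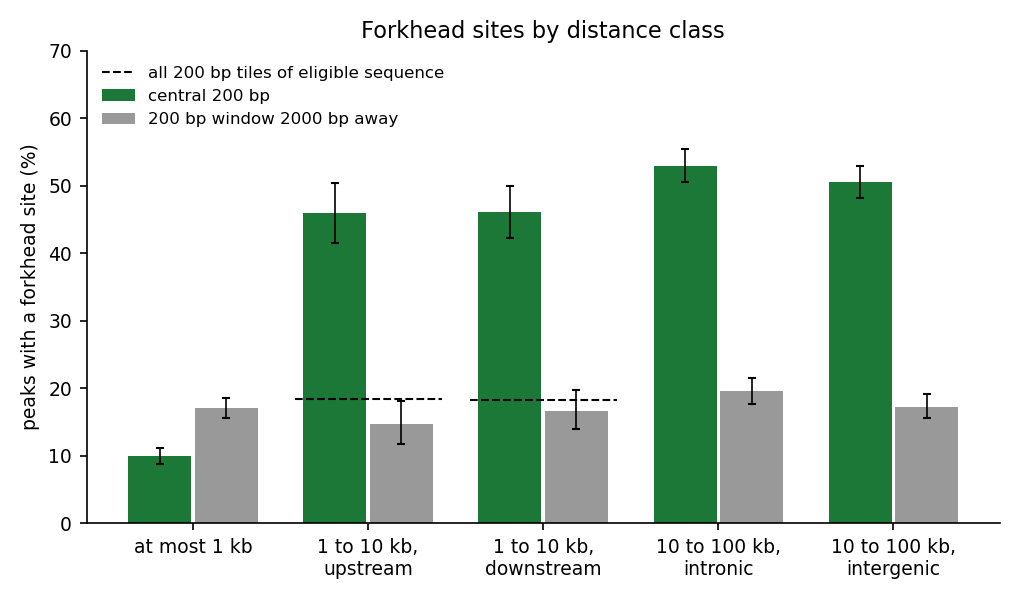
Share of peaks with a forkhead site (y axis, %) in the central 200 bp (green) and in a 200 bp window 2000 bp away (grey), for promoter peaks, the upstream and downstream members, and peaks 10 to 100 kb away (x axis); bars are Wilson 95% intervals and dashed lines the share of eligible tiles. Upstream and downstream members stand at 45.9% and 46.1%, above the promoter peaks at 9.89% and near the more distant peaks.

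Members held forkhead sites far more often than promoter peaks and slightly less often than distant ones. The share was 9.89% in the 2357 peaks within 1 kb of a start (odds ratio of members against them 7.77, 6.49 to 9.30, Fisher exact p adjusted over 3 comparisons = 5.10e-121). It was 53.0% in 1593 intronic peaks 10 to 100 kb away (odds ratio 0.756, 0.649 to 0.882, Fisher exact adjusted p = 0.000633) and 50.6% in 1675 intergenic peaks at that distance (0.833, 0.716 to 0.970, adjusted p = 0.0200). Compared within 5% classes of GC content (Mantel-Haenszel chi-square test), the odds ratio against promoter peaks was 1.62 (adjusted p = 0.000141), and those against distant peaks were 0.955 and 0.939 (adjusted p = 0.581 for both), no longer past the threshold. The backward sequences of the negative control gave contrasts of a like size, with an odds ratio of 6.82 against promoter peaks (Fisher exact adjusted p = 3.26e-33), 0.664 against intronic distant peaks (adjusted p = 0.000417) and 0.855 against intergenic ones (adjusted p = 0.192). Whether the forkhead contrasts differ from those of the control was not tested, so the differences between peak classes are not given as particular to forkhead sites.

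The site share fell with GC content and rose with score on both sides. From members under 40% GC to members of 55% GC or more it fell from 64.9% (59.3 to 70.1) to 16.5% (12.1 to 22.1). The cores are AT-rich, so low GC content itself favours them, and no tile share is given for these classes. From scores of 17 to 18 to scores of 42 and over it rose from 30.8% (25.8 to 36.2) to 67.5% (60.6 to 73.8), while the median GC content went from 47.5% to 43%. With distance it was 37.96% at 1 to 2 kb, 43.5% at 2 to 4 kb and 50.8% at 4 to 10 kb. The median GC content in these steps was 48%, 46.5% and 44.5%. How far GC content accounts for the changes with score and distance was not tested. At 2 to 4 kb the site share was 51.2% upstream (42.6 to 59.7) and 37.6% downstream (30.5 to 45.2), and at 4 to 10 kb 46.8% and 53.9%.

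**Figure D3:**
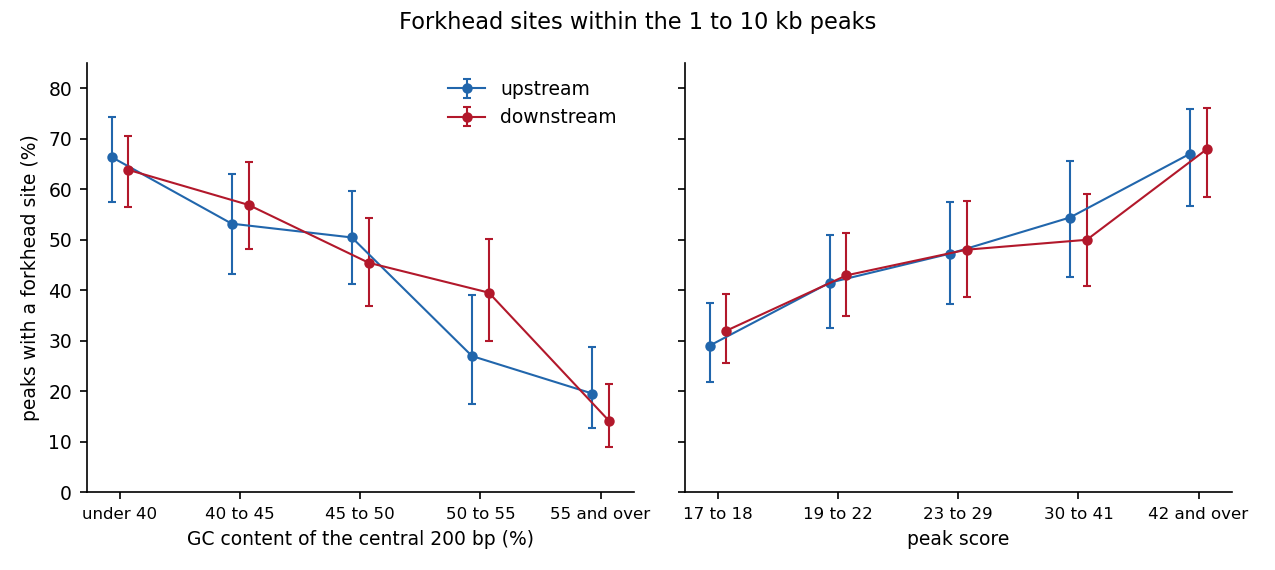
Share of members with a forkhead site (y axis, %) by GC content of the central 200 bp (left, %) and by peak score (right), upstream in blue and downstream in red; bars are Wilson 95% intervals. Both sides fall with GC content and rise with score, and the intervals of the sides overlap in every class.

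The 212 members with at least 55% GC are described separately. Their median ratio of observed to expected CpG was 0.516, against 0.238 in the other 892, and 30.7% of them lay at 1 to 2 kb against 20.2%. The SP/KLF core GGGCGGG was in 19.3% of them and in 1.35% of the rest, and the AP-2 core GCCNNNGGC in 22.2% and 3.14%. Both cores are made of G and C, so the split by GC content itself favours them, and no share in sequence of equal GC content was taken. The stretches below are the central 101 bases (mm9, + strand, every CG in capitals) of 1 high-scoring member on each side. Both have at least 55% GC and no forkhead site in the central 200 bp, and they lie near Lypd6b and near the integrin gene Itgb5.
Lypd6b (upstream, 1.73 kb), chr2:49641428-49641528, + strand: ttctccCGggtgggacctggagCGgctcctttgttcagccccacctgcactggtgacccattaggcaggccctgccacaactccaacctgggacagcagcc
Itgb5 (downstream, 3.39 kb), chr16:33833105-33833205, + strand: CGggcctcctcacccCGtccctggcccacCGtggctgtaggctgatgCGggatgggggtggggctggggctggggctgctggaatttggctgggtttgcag
The Itgb5 peak, in intron 1, had a score of 77, 99 ChIP tags and 6 input tags, and the Lypd6b peak a score of 86, 88 ChIP tags and 6 input tags. The Itgb5 region held 1 forkhead site outside its central 200 bp. Neither stretch holds GGGCGGG or a forkhead site, and CG pairs number 4 in the Itgb5 stretch and 2 in the Lypd6b stretch. The CpG ratio over the central 200 bp was 0.444 for Itgb5 and 0.271 for Lypd6b, both below the median of the GC-rich members.

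Other motifs did not set the sides apart. Of 24 motifs searched on both strands, 0 (0%) differed between upstream and downstream by Fisher's exact test with Benjamini-Hochberg adjustment, and 0 had an unadjusted p under 0.05 in the central 200 bp. The 24 include the forkhead site, its stricter form of GTAAACA and ATAAACA, and the backward control. The nuclear factor I motif was in 0 members on either side, so its test could not show a difference. The smallest unadjusted p was 0.0893, for GGGCGGG in 6.08% of upstream and 3.83% of downstream peaks. Relative to tiles, the SOX cores AACAAAG and AACAATG were in 12.2% of members against 8.78%, and the E-box CAGCTG in 13.2% against 8.19%. GGGCGGG was in 4.80% against 1.17%, the AP-2 core in 6.79% against 3.26%, and the E2F cores TTCCCGC and TTGGCGC in 1.99% against 0.648%. CCAAT was less frequent than in tiles, in 20.2% against 26.3%, and the RUNX core TGTGGTT was in 4.80% against 5.35%. The long CTCF motif was in 9 members, 2 upstream and 7 downstream, which is 0.815% of members against 0.0631% of tiles, a ratio of 12.9 that rests on few peaks. A SOX core and a forkhead site can overlap, and such overlaps were counted for both. None of these tile shares was weighted to the members' GC content, and 19.2% of members but 6.17% of tiles had at least 55% GC. How far GC content accounts for the differences from tiles was not tested.

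The 10 peaks on each side of each limit of the range were described without a test. Numbers this small cannot show whether the peaks change at a limit. The 10 promoter peaks nearest to the 1 kb limit, at 977 to 996 bp, had a median score of 22, a median GC content of 61.5% and a forkhead site in 1. The 10 members just beyond it had a median score of 23, a median GC content of 55% and a site in 3. At the outer limit, the 10 members just within 10 kb had a median score of 24 and a site in 5, and the 10 peaks just beyond it a median score of 26 and a site in 6.

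Among 22365 protein-coding genes, 1007 (4.5%) were the nearest gene of at least 1 member. Counted by the side of the nearest start, which could be an internal one, peaks lay only upstream for 424, only downstream for 549, and on both sides for 34. The shares with a peak were 2.05% upstream and 2.61% downstream. A promoter peak was also present in 218 of the 1007 (21.6%), against 10.3% of all genes. The nearest gene is a label of position, and no contact between a peak and a gene was measured.

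**Figure D4:**
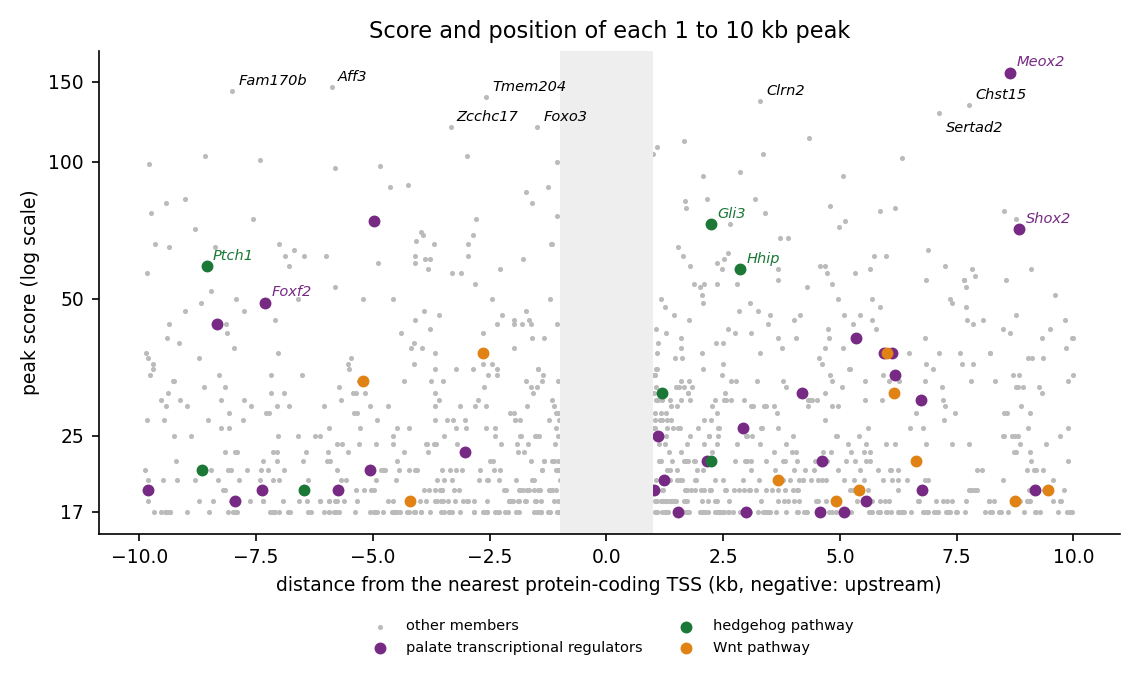
Score (y axis, log scale) of each of the 1104 members by distance from the nearest protein-coding TSS (x axis, kb, negative upstream; the grey band is the excluded promoter range), with members near genes of the palate regulator, hedgehog and Wnt lists coloured. Scores run from 17 to 157 with the Meox2 peak highest, and high scores occur on both sides.

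The highest-scoring upstream peak lay 5.88 kb before Aff3, a gene for a nuclear protein of the transcription elongation machinery, at chr1:38727369-38727995 between genes. It had a score of 146, 147 ChIP tags, 10 input tags and a 10.5-fold excess (5.57 to 22.4). The Fam170b peak, at chr14:33638700-33639579 and 8.01 kb before the gene, had the highest fold of all members, with 160 ChIP tags, 2 input tags and a 57.3-fold excess (15.6 to 477). Both had forkhead sites, printed above. Foxo3, a forkhead factor regulated by insulin signalling, had its peak 1.48 kb upstream at chr10:41997595-41998479, with a score of 119, 137 ChIP tags and 9 input tags. Enpp2, which encodes autotaxin, the enzyme that makes lysophosphatidic acid, had 203 ChIP tags and 14 input tags 1.06 kb upstream and a score of 100. The other upstream peaks of the top 10 were near Tmem204 (score 139), Zcchc17 (119), 4931440P22Rik (103), Cst13 (103), 1700020N01Rik (101) and Asap1 (99), an Arf GTPase-activating protein. All 10 had a forkhead site in the central 200 bp.

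The highest-scoring downstream peak, also the highest-scoring of all members, was in intron 1 of Meox2, a homeobox gene of the palatal mesenchyme. It lay 8.64 kb past the start at chr12:37843390-37844143, with a score of 157, 167 ChIP tags, 8 input tags and a 14.95-fold excess (7.42 to 35.2). No forkhead site was within its central 200 bp, although 2 lay elsewhere in the 753 bp region. Chst15, a chondroitin sulfate sulfotransferase gene, had a peak of 202 ChIP tags and 13 input tags in intron 1, at chr7:139500176-139501070 with a score of 133. Odz4, a teneurin gene of cell adhesion, had 197 ChIP tags and 12 input tags in intron 1 (score 113). Clrn2, a clarin gene, followed with a score of 136 and Sertad2, a transcriptional coregulator, with 128. The top 10 also included Nedd9, a focal adhesion adaptor (111), Ptgis, which makes prostacyclin (104), A430107O13Rik (104) and 1110018J18Rik (102). Of the 10 downstream peaks, 8 had a forkhead site in the centre and those of Meox2 and Ptgis did not.

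Several genes had at least 3 members, mostly of low score. The members of a gene could lie far apart, near different starts: those of Nfib ran from chr4:82153039 to chr4:82353300. The amount of eligible sequence per gene was not taken into account in these counts. Bcor, the gene of the BCL6 corepressor on the X chromosome, had 6, of which 4 were downstream and 2 upstream of internal starts, with scores of 17 to 22. The Bcor region with most tags, 5.05 kb upstream at chrX:11710141-11711019, had 89 ChIP tags and 5 input tags. Nfib, a nuclear factor I gene, had 4 members, all upstream of their nearest start and scoring 17 to 24; 3 were inside the gene and 1 was before it. Slit3, a guidance ligand of Robo receptors, had 4, 3 of them in intron 1, with scores of 17 to 41 and forkhead sites in 3. Another 3 members each were near Aff3, Arhgef12, Rarg, Sertad2, Zmiz1, Gm4613 and Gm5447. Rarg encodes a retinoic acid receptor. The 34 genes with peaks on both sides included Ptch1, Foxf2, Rspo3, Robo1, Mef2c, Lamb1 and Cdh11. Side refers to the nearest start, so such peaks could belong to different starts of a gene. The upstream peaks of Ptch1 and Mef2c lay inside the gene. Lamb1 and Cdh11 were named here after their values were seen.

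Foxf2 had a peak on each side of its own start. The upstream one, 7.30 kb away at chr13:31710133-31710633, had a score of 49, 48 ChIP tags, 3 input tags and an 11.5-fold excess (3.69 to 57.5). The downstream one lay past the end of the gene, 6.74 kb from the start at chr13:31723917-31724940, with 255 ChIP tags, 12 input tags and a 15.2-fold excess (8.56 to 29.9). Its score was 30, below that of the upstream peak, although it held more tags over a wider region. The downstream centre held 2 forkhead sites, while the upstream region had 1, outside the central 200 bp. Foxf1, the closest relative of Foxf2, had no member.

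Gene lists are described by their counts beside the 4.5% of all genes, since they were drawn up with earlier results of these data known. Palate regulators had the highest share of the 19 lists: 19 of the 40 transcriptional regulators of palate development matched (47.5%) had a member, 7 upstream and 15 downstream. Their 30 peaks came to 38.2 per Mb of eligible sequence (25.8 to 54.5), compared with 2.97 over all genes, while the median eligible length per gene was 17.01 kb against 16.5 kb for all. Of the 30, 21 were downstream and 10 had a forkhead site in the centre. Of all 1104 members, 56.8% were downstream and 46.0% had such a site, so these peaks did not hold it more often. Besides Meox2 and Foxf2, Shox2, which is needed for the anterior palate, had 167 ChIP tags and 10 input tags 8.84 kb downstream (score 71, with a forkhead site). Its other peak, in intron 1 and 1.10 kb downstream, had 32 ChIP tags and 2 input tags (score 25) and no forkhead site in the centre. Other genes of the list with a member included Osr2, Pax9, Msx1, Zeb2, Twist1, Prrx1, Tbx3, Dlx2, Dlx5, Sim2, Hand2, Six2, Bcor and Snai1, whose scores ran from 17 to 38.

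Hedgehog pathway genes had a member in 6 of 19 cases. Gli3, the pathway's main repressor, had an intron 1 peak 2.24 kb downstream at chr13:15557665-15558432, with 80 ChIP tags, 3 input tags and a 19.1-fold excess (6.31 to 94.6). Ptch1, the receptor, had a peak inside the gene, upstream of an internal start, with a score of 59, 67 ChIP tags and 4 input tags. Its other peak, downstream of a different start, had a score of 31 and 31 ChIP tags. Hhip, a decoy receptor that binds the ligand, had an intron 1 peak with a score of 58, 55 ChIP tags and 3 input tags. The ligand gene Ihh had a score of 22. The upstream Ptch1 peak and those of Gli3, Hhip and Kif7 had forkhead sites in the centre. The signal transducer Smo and the regulator Kif7 had upstream peaks scoring 21 and 19.

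Wnt pathway genes had a member in 10 of 41 cases, 3 upstream and 8 downstream. Ror1, a Wnt co-receptor, had 118 ChIP tags and 6 input tags in intron 1 (score 38). Rspo3, a secreted amplifier of Wnt signalling, had an upstream peak (score 38, 47 ChIP tags and 2 input tags) and a downstream one (score 20). Sfrp2, a secreted inhibitor, had 31 ChIP tags and no input tag, and Kremen1, a receptor of Dickkopf inhibitors, 34 ChIP tags and 2 input tags. In the TGF-beta and BMP pathway 5 of 36 genes had a member, 0 upstream and 5 downstream; with an upstream share of 2.05% over all genes, 0 of 36 is near the background. The peaks were near the co-receptor gene Tgfbr3 (score 55, 50 ChIP tags and 2 input tags), the inhibitory Smad gene Smad7 (50), the activin antagonist Fst (31), the BMP antagonist Nog (28) and the ligand gene Tgfb2 (22). In the FGF pathway 1 of 22 genes had a member, the ligand gene Fgf18, with a score of 19, 18 ChIP tags and 1 input tag 1.69 kb upstream.

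Matrix and adhesion genes had a member in 9 of 48 cases, among them Itgb5, the matrix protease gene Adamts9 (score 47), the integrin gene Itga9 (42) and the collagen gene Col12a1 (41). Axon guidance genes had one in 7 of 38, including Slit3, its receptor Robo1 (score 31 downstream and 20 upstream), Nrp1, a semaphorin co-receptor (35), and Epha3 (34). Osteogenic genes had one in 4 of 20, with Sp7, an osteoblast factor, at 39 and Cbfb, the partner of RUNX proteins, at 38. IGF and PDGF genes had one in 5 of 21, with a highest score of 32 at Pdgfra, a PDGF receptor of mesenchyme. Forkhead genes had one in 7 of 42 and SOX genes in 3 of 17.

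Some marker lists of other cell types were also above the 4.5% of all genes. Epithelial markers had a member in 4 of 25 cases (16%, 9.20 peaks per Mb with an interval of 2.51 to 23.6), muscle markers in 2 of 18 (11.1%) and blood and macrophage markers in 2 of 20 (10%). Neural markers, with 1 of 20 (5%), were near the background. The scores were at most 36. The epithelial share was above that of the TGF-beta and BMP list (13.9%) and near that of the matrix list (18.8%). Endothelial markers and liver genes had 0 of 20 each, which is near the background for lists of this size. Their intervals reached 8.51 and 10.1 peaks per Mb, against 2.97 over all genes. Ribosomal protein genes had a member in 4 of 42 cases and cell cycle genes in 3 of 28, with Cdkn1c, a cell cycle inhibitor, at a score of 46.

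**Figure D5:**
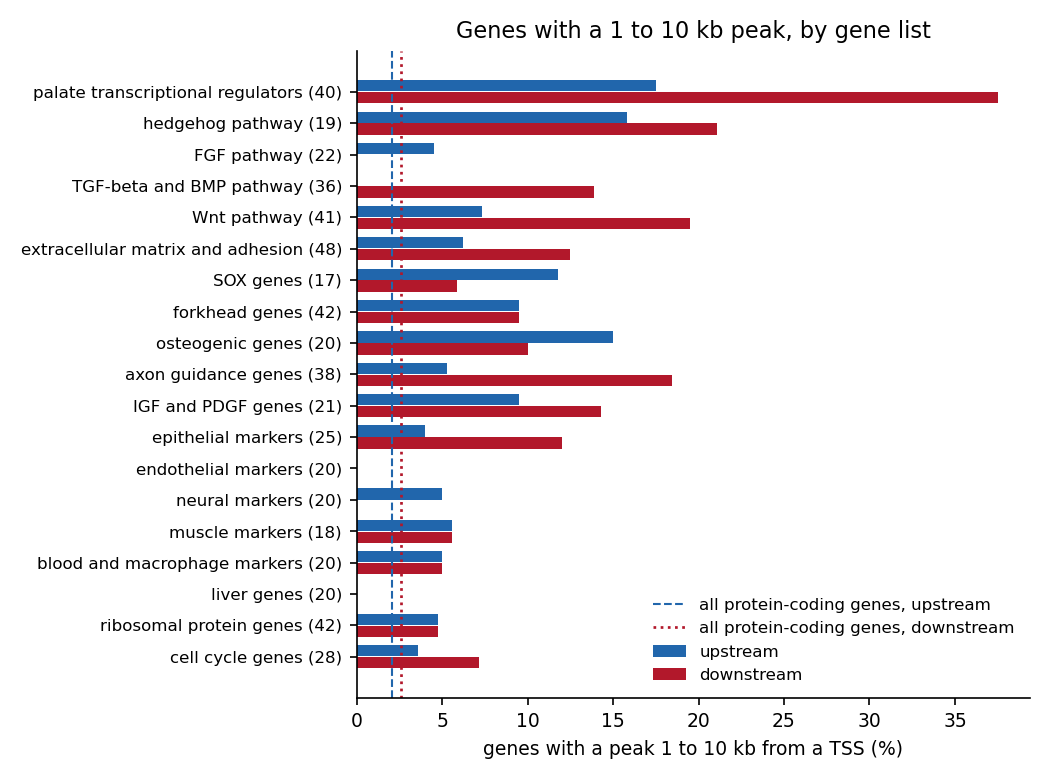
Share of the genes of each list (y axis, number of matched genes in brackets) that are the nearest gene of a peak 1 to 10 kb upstream (blue) or downstream (red) of a start (x axis, %); lines mark the shares over all protein-coding genes, 2.05% and 2.61%. Palate regulators reach the highest share on both sides. Endothelial markers and liver genes have none, which is near the background for lists of 20 genes.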

How the data were processed

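Regions were called by the authors from the ChIP tags with the input as background, and the input's own file was not used here. Alignment was to mm9, and Bowtie 1.0.0, SAMtools 0.1.19 and HOMER are named in the submitters' processing notes; a version of HOMER was not given in the sources used here. Peaks of 500 bp were called, per the file headers, at least 1000 bp apart and stitched, with a tag threshold of 17, a 10-fold excess over input and over the surrounding 10000 bp, a p-value of at most 0.0001 and at most 1 tag per position. The deposited signal was ChIP tags scaled to 10000000. Multiplied back by the total, the values lay within 0.134 of whole numbers and summed to 397999, the header's tags in peaks. The deposited score, fold ratio and p-value of each peak are the authors' own and only described or filtered peaks.

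Distances, exons and genes came from GENCODE vM1 on NCBIM37, the assembly of mm9, with coordinates 1-based. Eligible sequence was every position outside assembly gaps that met the same rule, split into 1859746 tiles of 200 bp; mappability was not modelled. Densities carry exact Poisson intervals, shares Wilson 95% intervals, and single folds an exact interval conditional on the ChIP and input tags. These cover counting error only, since each group had 1 library. Motifs were searched on both strands. Genes were named by a rule: those of the 10 highest-scoring members on each side, the up to 10 genes with most members, up to 4 genes with the highest-scoring members of each list (up to 2 for other cell types, ribosomal and cell cycle genes), and Foxf2 and Foxf1; other genes were named where a list's members were enumerated. Some genes that the rule would name are not reported here. Of 541 list entries, 537 matched a gene. Members, lists, motifs and tests were chosen with earlier results of these data known. The tests were tried on simulated data. Alternatives covered score and fold limits, distance limits, outermost starts, exons, neighbouring peaks, window width, motif definition, flank and GC content. Python 3.11.15, NumPy 2.4.6, pandas 2.3.3, SciPy 1.17.1, statsmodels 0.14.6 and matplotlib 3.10.9 were used.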

Additional observations from a re-analysis of the deposited data

How the results depend on the processing

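The lower upstream density (ratio 0.805) kept its direction in 9 of 10 settings. It missed the threshold at a 15-fold excess or more over input (0.807, exact binomial p = 0.0515) and turned between genes (1.13, p = 0.372), a split chosen after seeing the data like those inside genes, below 55% GC and on autosomes. The odds ratio of forkhead sites between the sides ran from 0.935 to 1.33 over the alternatives and passed the threshold in none of them. The lower share against intronic distant peaks was no longer past the threshold at 15-fold or more (0.814) or within GC classes (0.955). Against intergenic distant peaks this was so at 15-fold or more (0.941), from 2 kb outwards (0.914) and within GC classes (0.939). Backward sequences, a negative control and not another site definition, gave odds ratios of 6.82 against promoter, 0.664 against intronic and 0.855 against intergenic distant peaks, and centre to flank ratios of 1.10 upstream and 1.04 downstream. The odds ratio for high GC content turned to 0.718 with the outermost start of each gene (Fisher exact p = 0.0340) and to 0.748 with exons kept in (p = 0.0495), and that for other transcript starts became 0.613 with outermost starts (p = 0.0276); the cause was not tested. List genes with a member fell from 90 to 46 among members in the set above the median score and to 47 among those with a forkhead site, since fewer peaks were counted. In 400 bp windows 0 of 24 motifs differed between the sides after adjustment, and the smallest unadjusted Fisher exact p was 0.0441. No paired analysis was possible because each group had 1 library. Masking of repeats was not run, as the reference used here is unmasked. Depth limits single folds: a peak with 17 ChIP tags and 1 input tag has a fold of 12.2 with an interval of 1.91 to 509.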
